A study of Laetiporus sulphureus with 6 samples.

Results

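Family 18 of the glycoside hydrolases (GH18) holds the chitinases of fungi, and its transcripts were followed in the brown-rot fungus *Laetiporus sulphureus* ATCC 52600 before and after transfer to sugarcane bagasse. The members are the 9 genes to which the domain annotation of this strain assigns GH18, out of 10015 genes counted. BIN stands for 3 samples of mycelium kept for 24 h at 30 °C and 180 rpm with 1 g of in natura sugarcane bagasse, that is, bagasse without pretreatment. The medium was 100 mL of mineral medium of pH 7 with 6 g/L of ammonium sulfate. T0 stands for 3 samples of the pre-inoculum mycelium of the same strain, started from 15 agar discs of 8 mm. It was grown for 7 days in 100 mL of liquid medium, also at 30 °C and 180 rpm, and the BIN mycelium had passed through that same step. Transfer to fresh medium and contact with bagasse took place together, and the BIN mycelium was also 24 h older than that of T0. Bagasse was the only carbon source named for the BIN medium. The parts of medium, carbon source, bagasse and age in any difference cannot be told apart. In RNA pooled from whole mycelium, fewer hyphae with a transcript cannot be told apart from less transcript per hypha.

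Chitin, a polymer of N-acetylglucosamine, is a structural component of the fungal cell wall. GH18 enzymes cut it within the chain or from its ends, and in other fungi they are known to take part in hyphal growth, in recycling of the wall of old hyphae and in attack on chitin from outside the cell. The family also includes endo-β-N-acetylglucosaminidases, which act on glycans of proteins, so that the domain alone does not fix the substrate. All 9 members carry the catalytic GH18 domain of Pfam (PF00704). Among them g3493, g3348, g5150, g834, g10852 and g10854 are described as chitinases, g9491 is described only by a carbohydrate-binding domain, and no description was used for g7839 or g10664.

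The 6 libraries held 9541028 to 15331728 counts. Every gene in the table had at least 10 counts and 1 count per 1000000 (CPM) in each library, so that a GH18 gene silent in BIN or T0 could not appear, but none of the 9 annotated genes was missing. Within-gene comparisons were made on CPM scaled by edgeR's TMM factors, and comparisons of levels between genes on the deposited TPM values, which are read shares corrected for gene length. A gene was called higher or lower in BIN when edgeR's quasi-likelihood test gave an adjusted p of at most 0.05 and its log2 fold change, BIN over T0, was at least 1 in either direction.

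The GH18 genes divided into 3 that rose on bagasse (g3493, g3348 and g9491), 3 that fell (g5150, g834 and g10852) and 3 that were not called (g10854, g10664 and g7839). Their log2 fold changes ran from -1.63 to 3.64, with a median of 0.08 against 0.00 over all genes tested. Of all genes, 11.3% were called higher and 14.5% lower, or 25.9% in either direction, against 6 of the 9 GH18 genes. The balance of these calls over all genes depended on the scaling, with 1134 higher and 1457 lower here, 1439 higher and 1185 lower with library size alone, and 2136 higher and 730 lower on log2(TPM + 1) values. An adjusted p of at most 0.05 alone was reached by 7 GH18 genes and by 71.1% of all genes. Among the 118 other tested glycoside hydrolases, 35 genes, or 29.7%, were higher and 14 genes, or 11.9%, were lower. The BIN and T0 libraries did not overlap on the CPM scale in 7 of the 9 GH18 genes, a share close to the 75.6% of all genes that did so. In 4 GH18 genes all BIN libraries were higher, against 37.6% of all genes, and in 3 all were lower, against 38% of all genes.

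**Figure D1:**
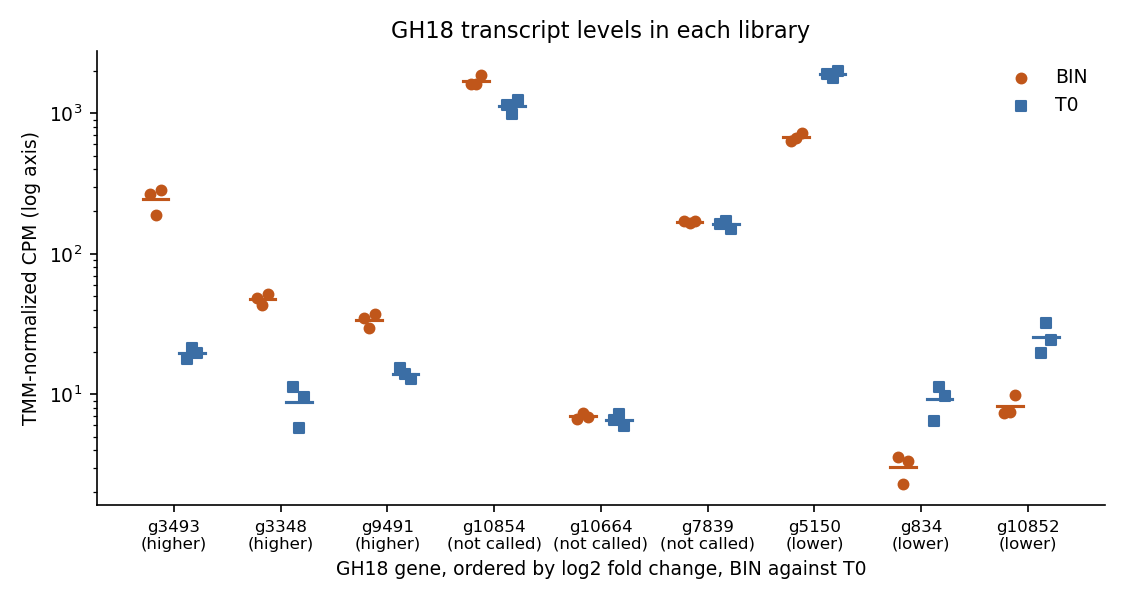
TMM-normalized CPM (log axis) of the 9 GH18 genes in the 3 BIN libraries (circles) and the 3 T0 libraries (squares), with bars at the group means. The groups stand apart in every gene except g10664 and g7839, and g3493 shows the widest gap, with means of 247 in BIN and 19.6 in T0.

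The chitinase gene g3493 showed the largest rise of the family. It was measured at 265, 188 and 286 TMM-normalized CPM in BIN replicates 1, 2 and 3, against 17.9, 21.2 and 19.8 in T0 replicates 1, 2 and 3. The lowest BIN library thus lay far above the highest T0 library, while BIN replicate 2 was below the other BIN cultures. The fold change was 12.5 (95% interval 9.56 to 16.3), or 3.64 ± 0.17 (SE) on the log2 scale (edgeR adjusted p = 3.35e-07). With each library left out in turn, the log2 fold change stayed between 3.52 and 3.81. By TPM, g3493 was the gene at rank 863 of the 10015 in BIN and at rank 7120 in T0.

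g3348, also described as a chitinase, had 48.2, 43.4 and 51.6 TMM-normalized CPM in BIN, against 11.3, 5.71 and 9.49 in T0. Its BIN libraries were even, and among its T0 libraries replicate 2 was low, at 81 counts. The fold change was 5.50 (95% interval 3.95 to 7.67), or 2.46 ± 0.21 (SE) on the log2 scale (edgeR adjusted p = 1.26e-05). g9491, the member described by a carbohydrate-binding domain, had 34.7, 29.5 and 37.4 TMM-normalized CPM in BIN, against 15.3, 13.9 and 12.8 in T0. Its groups did not overlap, and its fold change was 2.43 (95% interval 2.00 to 2.95), or 1.28 ± 0.12 (SE) on the log2 scale (edgeR adjusted p = 1.53e-05). The lower bound of this interval lay almost at the threshold, at 1.00 on the log2 scale.

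Of the 3 falling genes, g5150 was the only abundant one. This chitinase gene had 631, 667 and 724 TMM-normalized CPM in BIN, against 1894, 1796 and 1986 in T0. Each BIN library lay well below each T0 library, and the coefficient of variation was 6.97% in BIN and 5.03% in T0. Its log2 fold change was -1.49 ± 0.12 (SE) (edgeR adjusted p = 3.88e-06), so that T0 exceeded BIN 2.81-fold.

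g10852 had 7.36, 7.49 and 9.85 TMM-normalized CPM in BIN, against 19.7, 32.3 and 24.3 in T0. The groups did not overlap, although the T0 cultures were spread widely, with a coefficient of variation of 25.0%. Its log2 fold change was -1.63 ± 0.20 (SE) (edgeR adjusted p = 8.53e-05). g834 was the scarcest member in BIN, where it was read 43, 29 and 46 times, or 3.56, 2.29 and 3.33 TMM-normalized CPM, against 6.49, 11.3 and 9.77 in T0. Its groups did not overlap, and its log2 fold change was -1.61 ± 0.24 (SE) (edgeR adjusted p = 2.55e-04), the widest error in the family. On log2(TPM + 1) values g834 had a log2 fold change of -0.84 and was not called (limma adjusted p = 0.00384), and on log2(TPM + 0.1) values it was called, at -1.10. The medians of all genes on these scales were 0.40 and 0.43, and the abundant g5150 was at -1.05 on both. In T0, g834 and g10852 were both highest in replicate 2 and lowest in replicate 1.

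**Figure D2:**
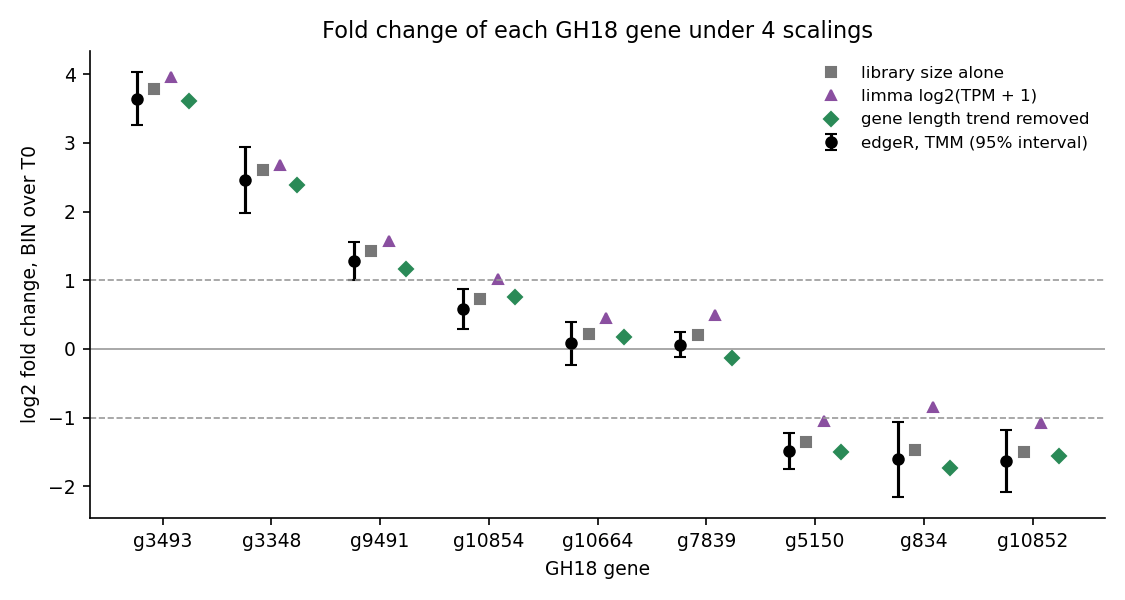
log2 fold change, BIN over T0, of each GH18 gene from edgeR with TMM factors (circles, with 95% intervals), and under library size alone (squares), on log2(TPM + 1) values (triangles) and after removal of the length trend (diamonds). Dashed lines mark the threshold of 1. The rising and the falling genes keep their sides under all 4 scalings, g834 stops short of the threshold at -0.84 on log2(TPM + 1) values, and g10854 passes it there at 1.02.

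The genes that were not called included the most abundant member in BIN. g10854, another chitinase gene, had 1613, 1602 and 1863 TMM-normalized CPM in BIN, against 1151, 996 and 1245 in T0. All BIN libraries lay above all T0 libraries. The log2 fold change was 0.58 ± 0.13 (SE) and the 95% interval of the fold change 1.22 to 1.84, which passed the test on p but not the threshold on the fold change (edgeR adjusted p = 0.00310). On log2(TPM + 1) values its log2 fold change was 1.02 and it was called higher (limma adjusted p = 2.20e-05). The median of all genes on that scale was 0.40.

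On TMM-normalized CPM, the group means of g7839 and g10664 differed by less than the SD of the T0 cultures, but by more than that of the BIN cultures. g7839, the longest member, had 172, 166 and 170 TMM-normalized CPM in BIN, against 164, 172 and 150 in T0. The groups overlapped, and the 95% interval of the fold change was 0.924 to 1.18 (log2 fold change 0.06 ± 0.08 (SE), edgeR adjusted p = 0.481). Once the length trend was removed, its log2 fold change was -0.13 (edgeR adjusted p = 0.136). g10664 had 6.70, 7.41 and 6.88 TMM-normalized CPM in BIN, against 6.61, 7.26 and 5.96 in T0. Here too the groups overlapped, with a 95% interval of 0.853 to 1.32 for the fold change (log2 fold change 0.08 ± 0.14 (SE), edgeR adjusted p = 0.607). On the CPM scale these intervals exclude a change as large as the threshold, but not a small one. In TPM neither gene overlapped, with 97.7 to 99.4 TPM in BIN and 62.2 to 81.1 TPM in T0 for g7839, and 6.69 to 7.59 TPM in BIN and 4.28 to 5.91 TPM in T0 for g10664. On log2(TPM + 1) values their log2 fold changes were 0.50 and 0.45 (limma adjusted p = 0.00183 and 0.0190), below the threshold, where the median of all genes was 0.40.

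Per length, transcript levels of the paralogs differed by about 3 orders of magnitude in BIN, where the highest member had 1040 times the mean TPM of the lowest, against 262 times in T0. The order in BIN was g10854 (2029 ± 159 TPM), g5150 (556 ± 37.6), g3493 (195 ± 38.4), g7839 (98.4 ± 0.875), g3348 (34.0 ± 2.46), g9491 (22.3 ± 2.34), g10852 (7.97 ± 1.29), g10664 (7.04 ± 0.480) and g834 (1.95 ± 0.407) (mean TPM and SD, n = 3). In this order only g10852 and g10664 had library values that overlapped. In T0 the order was g5150 (1152 ± 58.5 TPM), g10854 (997 ± 59.5), g7839 (69.8 ± 9.94), g10852 (18.5 ± 6.19), g3493 (11.6 ± 1.91), g9491 (6.82 ± 0.706), g10664 (4.94 ± 0.861), g3348 (4.58 ± 1.17) and g834 (4.39 ± 1.48) (mean TPM and SD, n = 3). Here g10852 overlapped with g3493, and the last 3 genes could not be ordered, since g10664 overlapped with g3348 and g3348 with g834.

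The 2 leading genes changed places. Within each library, the TPM of g10854 was 3.72, 3.49 and 3.74 times that of g5150 in BIN replicates 1, 2 and 3, against 0.883, 0.806 and 0.911 times in T0 replicates 1, 2 and 3. A ratio within one library does not depend on how the libraries are scaled. All BIN libraries thus held more g10854 than g5150 transcript per length, and all T0 libraries held less. Among all genes, the mean TPM of g10854 had rank 43 in BIN and rank 141 in T0, and that of g5150 rank 235 in BIN and rank 120 in T0.

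Together the 9 genes gave 2815, 2834 and 3204 TPM in BIN, against 2155, 2309 and 2346 TPM in T0. The ratio of the means was 1.30, or 0.38 on the log2 scale, close to the median of all genes on log2(TPM + 1) values, 0.40. On TMM-normalized CPM the median gene does not shift. There the totals were 2781, 2713 and 3152 in BIN, against 3286, 3056 and 3463 in T0. These groups overlapped, and the ratio of the means was 0.882, so that the sign of the difference in the family total depended on the unit. The make-up of the total moved in the same direction on both. g10854 made up 68.7% ± 0.511 of the summed GH18 TPM in BIN and 43.9% ± 1.85 in T0, while g5150 made up 18.8% ± 0.795 in BIN and 50.7% ± 1.08 in T0 (SD, n = 3). g3493 contributed 6.61% ± 1.09 in BIN and 0.510% ± 0.0714 in T0 (SD, n = 3). Without g10854 and g5150, the other members summed to 367 ± 43.8 TPM in BIN and 121 ± 19.0 TPM in T0 (SD, n = 3). Of these sums, g3493 alone held 195 TPM in BIN and 11.6 TPM in T0. In TMM-normalized CPM the other members summed to 516 ± 63.7 in BIN and 246 ± 16.4 in T0 (SD, n = 3), a smaller ratio. These totals are descriptions of a chosen set of genes and were not tested.

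**Figure D3:**
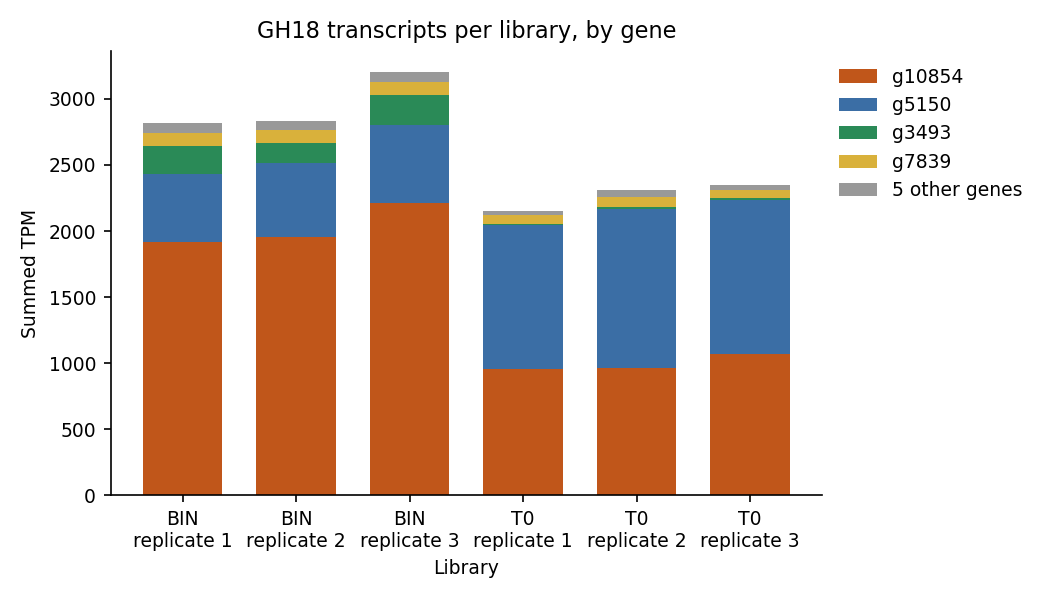
Summed TPM of the GH18 genes in each of the 3 BIN and 3 T0 libraries, divided by gene. g10854 fills 68.7% of the BIN bars on average against 43.9% of the T0 bars, g5150 shrinks to 18.8% in BIN against 50.7% in T0, and g3493 fills 6.61% in BIN against 0.510% in T0.

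The coding lengths that underlie the TPM values could be recovered as whole numbers, and those of the GH18 genes ran from 873 nt in g10854, or 291 codons, to 1800 nt in g7839, or 600 codons. Among the rising genes they were 1317 nt in g3493, 1467 nt in g3348 and 1587 nt in g9491. Among the falling genes they were 1080 nt in g10852, 1269 nt in g5150 and 1638 nt in g834, so that the groups overlapped in length. Over all genes the log2 fold change rose with coding length (Spearman's rho = 0.33, taken across genes and not across independent samples). After removal of that trend the log2 fold changes of the rising genes were 3.61, 2.38 and 1.17 for g3493, g3348 and g9491, and those of the falling genes were -1.50, -1.74 and -1.56 for g5150, g834 and g10852.

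In the sequence annotation, a signal peptide for secretion was marked for each of the falling genes g5150, g834 and g10852, and for none of the rising genes g3493, g3348 and g9491. One was also marked for g10854, and no entry was used for g7839 or g10664. Other called carbohydrate-active enzymes of the same list showed a split in the same direction, with a signal peptide in 13 of 60 higher genes (21.7%) and in 22 of 29 lower genes (75.9%). The directions are those of the edgeR calls given here, but the genes on that list were chosen from a comparison of these same libraries, and no test was made.

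g10852 and g10854 have gene numbers that lie 2 apart, and g10853 was not in the table. g10854 was read 219, 214 and 189 times for each read of g10852 in BIN, against 58.4, 30.8 and 51.2 times in T0. The BIN libraries lay apart from the T0 libraries, with a log2 ratio of g10852 to g10854 of -7.69 ± 0.113 in BIN and -5.50 ± 0.486 in T0 (SD, n = 3). The difference, BIN minus T0, was -2.20 (two-sided exact permutation test, p = 0.1, the smallest value that 3 against 3 libraries can give). On the CPM scale every BIN library was below every T0 library for g10852 and above every T0 library for g10854. The ratio therefore had to separate the groups, and its test adds nothing to the results of the 2 genes. How the reads were counted is not given in the sources used here, so that the values of near-identical paralogs would be uncertain, and no sequences of these genes were used to see how alike they are.

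Of 17 other genes from families that act on chitin, N-acetylglucosamine or related amino sugars, all of which were tested, 5 were called higher and 3 lower, beside 11.3% and 14.5% of all genes. With the length trend removed, 2 were higher and 5 lower, beside 1115 and 1151 of all genes. They were listed by family, the chitin synthases also by an annotation term, and not every one is annotated to act on chitin. Chitin synthases extend the polymer at the plasma membrane. They were represented by the 8 genes of the glycosyltransferase family GT2 that carry a chitin synthase term in the annotation, and other GT2 genes were left out. Of these, g9419, g7017 and g6521 rose, with log2 fold changes of 1.48, 1.29 and 1.27 (standard errors 0.11, 0.09 and 0.12; edgeR adjusted p = 3.18e-06, 2.29e-06 and 1.41e-05), and none was called lower. These 3 genes are the longest on the list, at 5931, 4317 and 5856 nt, and once the length trend was removed none of them was called, at 0.73, 0.67 and 0.53. The most abundant chitin synthase per length in T0, g11653, had 595 ± 33.0 TMM-normalized CPM in BIN and 1144 ± 65.7 in T0 (SD, n = 3), or -0.94 ± 0.11 (SE) on the log2 scale, short of the threshold (edgeR adjusted p = 4.41e-05), and with the length trend removed it was called lower, at -1.39. g1166 had a log2 fold change of 0.65 ± 0.08 (SE) and was called higher on log2(TPM + 1) values, at 1.07, and g4471, g2675 and g599 had values of 0.16, 0.14 and 0.04, which turned negative with the length trend removed, at -0.38, -0.29 and -0.49.

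Carbohydrate esterase family 4 (CE4) includes chitin deacetylases, which turn chitin into chitosan, and acetyl xylan esterases. Of its 3 genes, g3716 was measured at 9875, 8597 and 8513 TMM-normalized CPM in BIN, against 2.05, 1.90 and 2.01 in T0, whereas no GH18 gene moved by more than 3.64 on the log2 scale. The scarce CE4 gene g5832, which the annotation describes as a chitin deacetylase but gives an acetylxylan esterase term, had 8.61, 8.28 and 8.47 TMM-normalized CPM in BIN, against 4.33, 4.93 and 2.63 in T0, which gave 1.10 ± 0.21 (SE) on the log2 scale (edgeR adjusted p = 0.00117). Without T0 replicate 3 it was at 0.85 and not called. The third gene, g850, was at -0.60 ± 0.09 (SE) on the log2 scale and was called lower with the length trend removed, at -1.08.

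GH20 β-N-acetylhexosaminidases release single N-acetylglucosamine units from the ends of chitin fragments, and thus act after chitinases. Of the 3 GH20 genes, g7008, which the annotation describes as an α-N-acetylgalactosaminidase, fell, with 189, 152 and 131 TMM-normalized CPM in BIN, against 405, 275 and 446 in T0, which gave -1.25 ± 0.20 (SE) on the log2 scale (edgeR adjusted p = 6.55e-04), and it was not called on log2(TPM + 1) values, at -0.79. The more abundant GH20 gene in BIN, g8819, had 469 ± 34.5 TMM-normalized CPM in BIN and 284 ± 36.2 in T0 (SD, n = 3), which gave 0.72 ± 0.12 (SE) on the log2 scale, and it was called higher on log2(TPM + 1) values, at 1.16. The log2 fold change of g7611 was 0.39 ± 0.14 (SE). The CE9 gene g9045, which encodes a predicted N-acetylglucosamine-6-phosphate deacetylase of amino sugar breakdown inside the cell, fell to 73.1, 65.4 and 70.7 TMM-normalized CPM in BIN, against 201, 191 and 200 in T0, which gave -1.50 ± 0.08 (SE) on the log2 scale (edgeR adjusted p = 2.57e-07). The GH85 gene g9978, of a family of endo-β-N-acetylglucosaminidases that act on glycans of proteins, and described in the annotation as an endo-β-N-acetylgalactosaminidase, was at -1.09 ± 0.07 (SE) on the log2 scale (edgeR adjusted p = 1.41e-06) and was not called with library size alone, at -0.95, nor on log2(TPM + 1) values, at -0.62. The single GH89 gene g6996, of a family of α-N-acetylglucosaminidases, was at 0.15 ± 0.14 (SE) on the log2 scale (edgeR adjusted p = 0.366), and at -0.20 with the length trend removed.

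**Figure D4:**
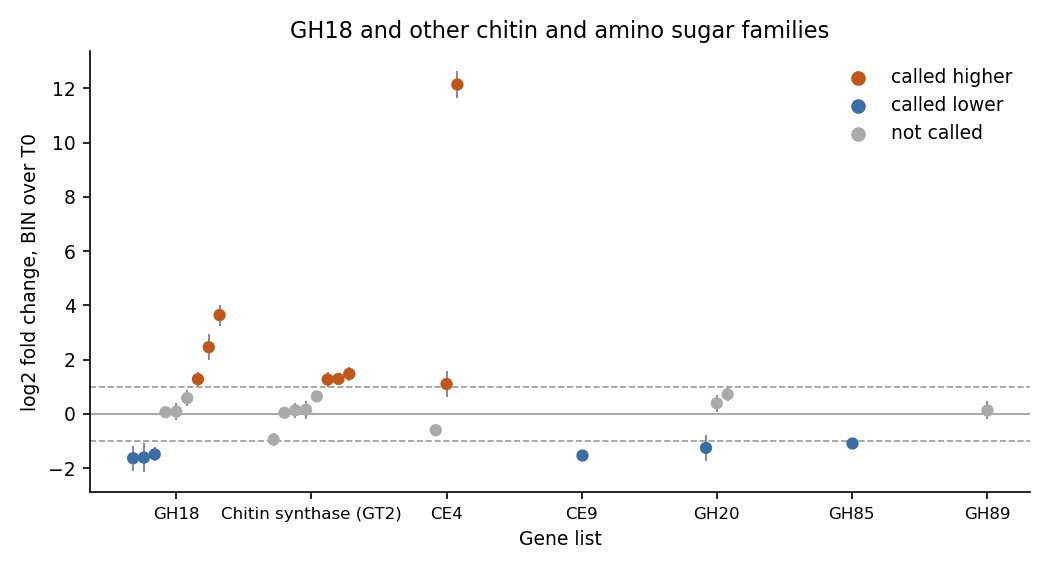
log2 fold change, BIN over T0, with 95% intervals for the 9 GH18 genes and the 17 genes of the other families, grouped by list and coloured by call. Dashed lines mark the threshold of 1. GH18 has genes called on both sides, the 3 called chitin synthases lie between 1.27 and 1.48, and the CE4 gene g3716 lies apart at 12.14.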

How the data were processed

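Total RNA of 6 samples was sequenced as TruSeq mRNA libraries on an Illumina HiSeq instrument. The authors filtered the reads (Trimmomatic 0.32), removed rRNA with SortMeRNA, mapped the rest to the genome they had assembled (TopHat2) and deposited raw counts per predicted gene. The counting program is not given in the sources used here, and DESeq2 is named for their own comparison, whose fold changes and p-values were not used, although the signal peptides and descriptions come from a list of genes it selected and, for g10854, from a list of proteins. They also deposited TPM values, that is, the same counts divided by a length and scaled to 1000000 per library. The ratio of both gave coding lengths (the smallest whole numbers that satisfied it, 99.3% of them multiples of 3, median 1107 nt), known only up to a common factor. No genome of this strain was used, and none of the 9 gene numbers matched the 13840 genes of the reference list of another strain, so no positions or sequences are given.

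Counts were tested with edgeR 4.0.16 (R 4.3.3; TMM, filterByExpr, which removed 0 genes, robust glmQLFit and glmQLFTest), with Benjamini-Hochberg adjustment over 10015 genes. Standard errors are the log2 fold change over the root of F, and 95% intervals use the moderated degrees of freedom. Replicates were taken as separate cultures, and log2 CPM correlated at 0.980 or above within groups. Alternatives were DESeq2 1.42.0, RLE, library size alone, no filter, a mean of 1 TPM, glmTreat, unadjusted p, limma 3.58.1 on log2(TPM + 1) and log2(TPM + 0.1), a lowess trend (span 0.3) on gene length removed, a replicate block and each library left out. Permutation tests used scipy 1.17.1. The tests were checked on simulated counts, in which few genes changed and no trend on gene length was built in. That check does not cover the length trend or the choice of scaling. Genes named are all members, the genes of the other chitin and amino sugar families, and for g3493, g5150 and g834 the 3 genes nearest in pattern. The other families were taken from the annotation by domain, and the chitin synthases by domain together with a chitin synthase term. Members and lists were chosen with earlier results of these data known.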

Additional observations from a re-analysis of the deposited data

How the results depend on the processing

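In all 17 alternatives, 3 or 4 GH18 genes were called higher and 2 or 3 lower, beside 737 to 2409 and 730 to 1549 of all genes. With a library left out the counts were 3 higher and 3 lower throughout, beside 1095 to 1201 and 1412 to 1549 of all genes. Some alternatives could hardly differ from the main fit. No filter repeated it, since filterByExpr removed 0 genes. Unadjusted p and glmTreat kept its log2 fold changes, so that no sign could change. A mean of 1 TPM kept 10010 of the 10015 genes. In all 17 alternatives, 6 of the 9 genes kept both sign and call. The exceptions were g834, at -0.84 on log2(TPM + 1) and not called, g10854, called higher at 1.02 with either pseudocount on TPM, and g7839, at -0.13 once the length trend was removed. With that trend removed, g2675, g4471, g599 and g6996 also turned negative, at -0.29, -0.38, -0.49 and -0.20. Of the 17 genes of the other families, 5 were higher and 3 lower (1134 and 1457 of all genes), against 2 higher and 5 lower with that trend removed (1115 and 1151 of all genes). On log2(TPM + 1) and log2(TPM + 0.1), 7 were higher and 1 lower (2136 and 730, and 2409 and 769, of all genes). With glmTreat 4 were higher and 1 lower (737 and 916 of all genes). With a library left out 4 to 5 were higher and 3 lower (1095 to 1201 and 1412 to 1549 of all genes). The ratio of summed GH18 levels was 1.30 in TPM (1.24 to 1.33 with a library left out) and 0.882 in CPM. The g5150 share differed by -31.9 percentage points in TPM (-32.4 to -31.3 with a library left out) and by -34.5 in CPM. The log2 ratio of g10852 to g10854 differed by -2.38 to -1.92 with a library left out. The cause of these shifts was not tested. Library size alone moved the all-gene median to 0.13 on the log2 scale, and log2(TPM + 1) values to 0.40. Same-numbered BIN and T0 cultures did not deviate together (r = 0.04, 0.01 and -0.11) and did not each correlate best with their own number, so the numbers were not taken as pairs. The replicate block gave 3 higher and 3 lower GH18 genes, and 1146 higher and 1441 lower genes in all, against 1134 and 1457 without it.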

Other observations

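For 3 members, the genes of the annotated list (683 candidates outside GH18) with the most similar course over the 6 libraries were sought by the root-mean-square difference of centred log2 CPM. For g3493 these were the GH16 gene g949, at 0.17, the hydroquinone dehalogenase gene g10071, at 0.25, and the redox gene g4194, at 0.27, with log2 fold changes of 3.81, 3.48 and 3.36. For g5150 they were the redox genes g2639, g10821 and g2395, at 0.06, 0.07 and 0.07, with log2 fold changes of -1.46, -1.46 and -1.47. For g834 they were the GH37 trehalase gene g10264, at 0.20, the cytochrome P450 gene g6161 and the GH92 gene g9634, both at 0.21, with log2 fold changes of -1.60, -1.89 and -1.44. The 6 libraries share the 2 conditions, and these distances are descriptions. When Pearson's correlation was used in place of the distance, the list shared 0, 0 and 1 genes with that for g3493, g5150 and g834, and among all genes outside GH18 32, 9 and 11 lay at least as near as the last one named for each.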
